A study of Mus musculus with 8 samples.

Results

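The genes described here are 38 genes of blood and lymph vessel endothelium, out of 18194 genes measured in mouse mandibular arches taken at embryonic day 11.5. They were chosen by symbol, as known markers, receptors, ligands and transcription factors of endothelium. Each is read by the brightest of the probe sets annotated to that gene alone, the one with the highest mean over all arrays, and all 38 were measured. RNA was hybridised to 8 Affymetrix arrays, 4 from mutant embryos (Wnt1-Cre;Alk5 fl/fl) and 4 from control embryos (Alk5 fl/fl), all of strain C57BL/6J and of undetermined sex. Alk5 is the older name of Tgfbr1, which encodes a type I receptor of the TGF-beta family. Both groups carry the floxed allele, and the Wnt1-Cre driver deletes it in the neural crest lineage of the mutants. The labels name no Cre in the controls, so effects of the driver itself and of losing the gene cannot be told apart. The labels number the samples without saying that each came from its own embryo or litter, so p-values measure the spread between these samples, which may be partly technical.

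The mandibular arch forms the lower jaw. Most of its mesenchyme comes from the neural crest, whereas the endothelium of its vessels comes from mesoderm, a lineage in which Wnt1-Cre is not active. Endothelial cells sense vascular endothelial growth factors (VEGFs) and angiopoietins that are made largely by the cells around them, so receptor genes report on the endothelium and several ligand genes on its neighbours. The whole arch was measured, so fewer endothelial cells and less RNA per endothelial cell cannot be told apart. All values below are log2 expression, and differences are log2 fold changes, mutant minus control. Levels of different probe sets are not comparable with each other, because probes differ in brightness.

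Arch mesenchyme genes were bright in both groups. Prrx1 read 12.93 ± 0.0748 in mutants and 13.27 ± 0.126 in controls (SD, n = 4 each), and Twist1 and Hand2 had means of 11.78 and 12.08 in mutants and 11.94 and 12.35 in controls. The defining endothelial markers Pecam1, Cdh5, Kdr, Tek, Tie1, Emcn and Cldn5 had means of 6.20 to 9.54 in mutants and 6.06 to 9.46 in controls, all above the lower quartile of gene means (5.70). Tgfbr1, the targeted gene, was not lower, at 12.98 ± 0.0115 in mutants and 12.79 ± 0.0844 in controls (adjusted p = 0.232), but whether its probe sets lie in the deleted part is not known here. Array medians were 6.28 to 6.42. Mutant array 3 stood apart, with an SD of 2.42 over all probe sets where the other arrays had 2.52 to 2.56, and with no correlation above 0.991 with any other array. Control array 4 lay nearest the mutants, with a median position of 0.29 over the genes called, on a scale where 0 is the mean of the remaining controls and 1 the mutant mean, whereas controls 1 to 3 lay at -0.19 to 0.016.

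Endothelial genes as a group differed little between mutant and control arches. Of the 38, Angpt2 rose, Erg fell and 36 did not pass an adjusted p under 0.05 in limma. Over all 18194 genes, 0.835% were called higher and 1.31% lower, 2.14% in all. The median change of the 38 genes was -0.02, beside -0.01 over all genes, and 18 were above 0 and 20 below. An unadjusted p under 0.05 was reached by 7 of the 38, beside 13.5% of all genes. The 95% interval of the change lay within a 1.5-fold change in either direction for 35 of the 38, beside 88.4% of all genes, and the exceptions were Angpt1, Erg and Fli1. The SE of a change was 0.0682 to 0.234 over the 38 genes, with a median of 0.0961. The values of the groups did not overlap for 5 of the 38 (Vegfa, Angpt2, Erg, Clec14a and Lyve1), whereas 10.3% of all genes had no overlap. Over the same arrays, 10 of 16 macrophage genes rose (median 0.86), and 2 of 11 platelet and megakaryocyte genes fell (median -0.25). The part of these cells in the values below was not tested.

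**Figure D1:**
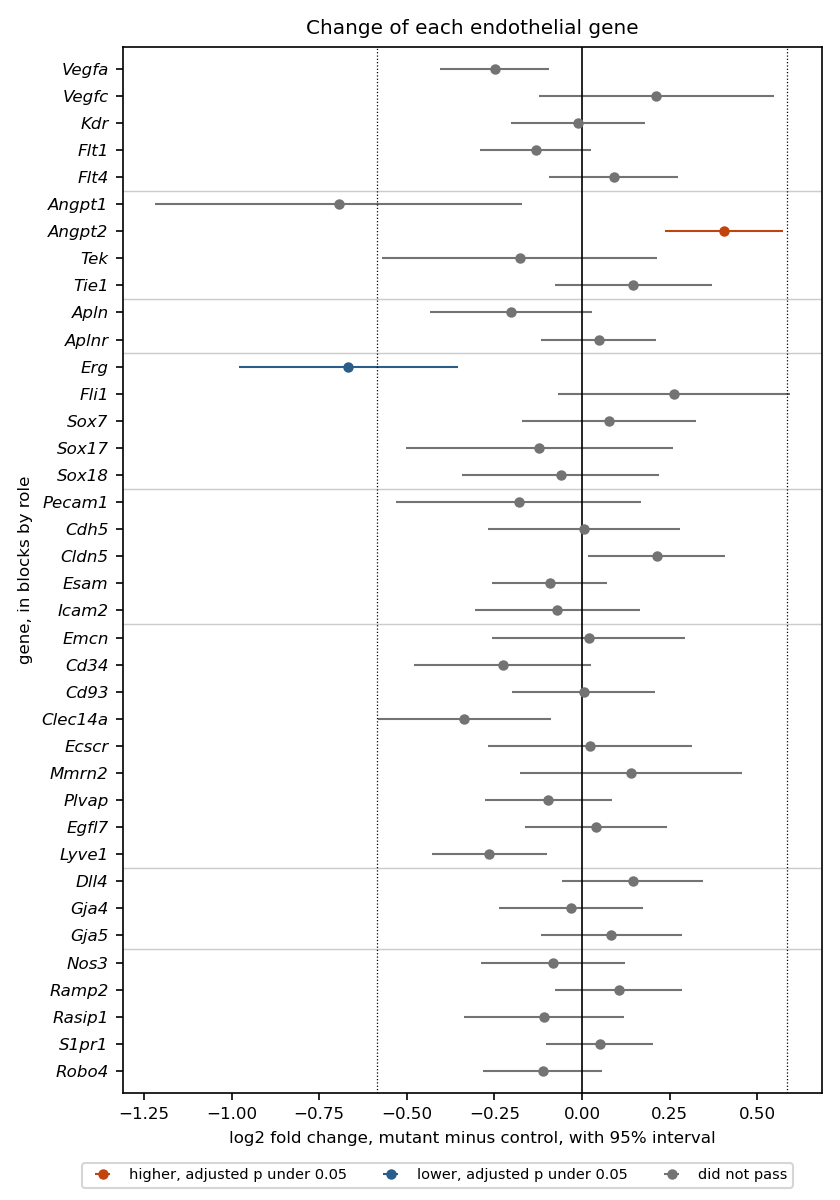
Log2 fold change, mutant minus control, of each of the 38 endothelial genes (points) with its 95% interval (bars), in blocks by role; dotted lines mark a 1.5-fold change. Angpt2 (0.40) and Erg (-0.67) are the coloured points, and most intervals lie between the dotted lines.

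The receptors of the VEGF family did not pass. Kdr, the main signalling receptor for VEGF-A on endothelium, read 9.27, 9.46, 9.20 and 9.27 in mutants 1 to 4 and 9.44, 9.18, 9.27 and 9.35 in controls 1 to 4. The groups overlapped fully, and the change of -0.01 had an interval of -0.20 to 0.18 (adjusted p = 0.97). Flt1, a receptor that also acts as a decoy for VEGF-A, changed by -0.13 (interval -0.29 to 0.03). Flt4, the receptor for VEGF-C on lymphatic and early vascular endothelium, changed by 0.09 (interval -0.09 to 0.27). All 4 probe sets of Flt1 were below 0, at -0.05 to -0.34, and none passed.

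The 2 VEGF ligand genes leaned in opposite directions without passing. Vegfa encodes the main growth factor for vessels and is made chiefly by non-endothelial cells. It read 7.43, 7.61, 7.47 and 7.50 in mutants and 7.76, 7.72, 7.83 and 7.71 in controls. Every mutant lay below every control, but the gap was small (-0.25 ± 0.0694 SE, adjusted p = 0.121). The other Vegfa probe set, dimmer at 6.36 in mutants and 6.33 in controls, gave a change of 0.03 ± 0.151.

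Vegfc, the ligand of Flt4 that drives lymphatic growth, is read by 3 bright probe sets that disagreed in size. The brightest read 9.39, 9.72, 9.33 and 9.80 in mutants and 9.47, 8.98, 9.40 and 9.54 in controls. The groups overlapped, and the change was 0.21 ± 0.150 (adjusted p = 0.619). The second read 9.45, 9.39, 9.12 and 9.26 in mutants and 9.02, 8.33, 8.59 and 9.04 in controls. The third read 9.35, 9.25, 9.15 and 9.16 in mutants and 8.87, 8.09, 8.48 and 8.90 in controls. On these 2 probe sets every mutant lay above every control, with changes of 0.56 ± 0.160 and 0.64 ± 0.166. In a fit over all probe sets with 1 gene, their adjusted p-values were 0.169 and 0.127, so neither passed. Controls 2 and 3 were the lowest arrays on both. The mean over the 3 probe sets changed by 0.47 (adjusted p = 0.174).

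In the angiopoietin system 1 of 4 genes passed. Angpt2 encodes an angiopoietin made by endothelium, an antagonist of the Tie2 receptor in many settings that loosens vessels for remodelling. It read 6.70, 6.79, 6.67 and 6.78 in mutants and 6.28, 6.24, 6.32 and 6.48 in controls. All 4 mutants lay above all 4 controls, and control 4 was the nearest to them. Angpt2 rose 1.32-fold (0.40 ± 0.0751 SE, interval 0.24 to 0.57, adjusted p = 0.0278). The call was lost without control 1, 2 or 3 or mutant 1, 2 or 4, where the change was 0.38 to 0.42 and the adjusted p 0.0657 to 0.119. Its other probe set was dim (4.28 in mutants and 4.21 in controls) and changed by 0.07 ± 0.136, so the mean over both was 0.24 (adjusted p = 0.174).

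Angpt1 encodes the angiopoietin that activates Tie2 and steadies vessels, and it is made by mesenchymal and mural cells. It read 7.59, 7.65, 6.92 and 7.42 in mutants and 8.20, 8.41, 8.35 and 7.40 in controls. Controls 1 to 3 lay above every mutant, whereas control 4 lay among the mutants. With all arrays the change was -0.69 ± 0.234 (interval -1.22 to -0.17, adjusted p = 0.21) and did not pass. Without control 4 it was -0.92 (adjusted p = 0.0239). Without both control 4 and mutant 3, a choice made after seeing the data, it was -0.77 (adjusted p = 0.0044). Of 17 alternatives only these 2 gave a call, and the adjusted p reached 0.515 among the others. A second, dimmer probe set changed by -0.03 ± 0.0950, and the mean over both by -0.36.

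The Tie receptor genes did not pass. Tek encodes Tie2, the angiopoietin receptor. It read 7.66, 7.74, 6.90 and 7.73 in mutants and 7.78, 7.57, 7.71 and 7.68 in controls. Mutant 3 was far below the other mutants, which lay within the controls' range. The change was -0.18 (interval -0.57 to 0.21, adjusted p = 0.725), or 0.03 without mutant 3. Tie1, a co-receptor of Tie2, changed by 0.15 (interval -0.08 to 0.37).

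**Figure D2:**
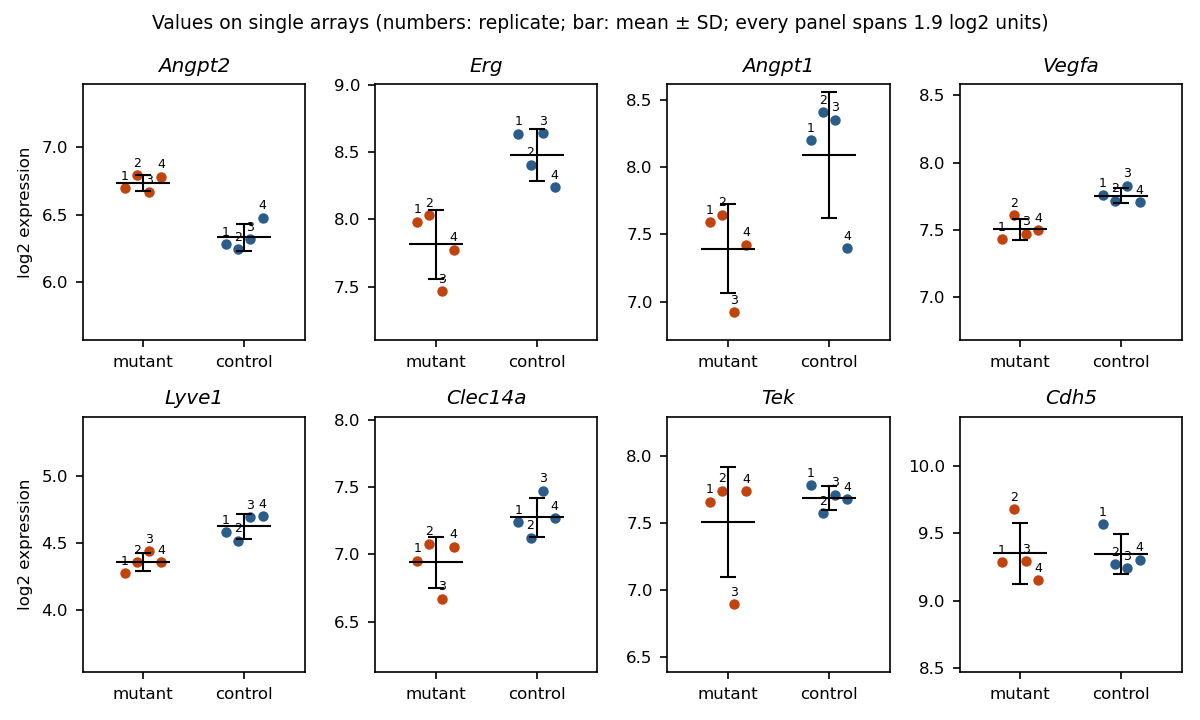
Log2 expression of 8 endothelial genes on each array (points, numbered by replicate; mutants on the left, controls on the right), with mean ± SD (n = 4 each). Angpt2 lies higher and Erg lower in every mutant than in any control, control 4 lies with the mutants for Angpt1, and mutant 3 is the low point for Tek.

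The apelin system, a peptide and receptor pair of sprouting and venous endothelium, did not pass. Apln, the peptide gene, read 8.09, 8.26, 8.53 and 8.36 in mutants and 8.51, 8.61, 8.56 and 8.36 in controls. Mutants 1, 2 and 4 lay below every control, mutant 4 only just, and mutant 3 did not (change -0.20, interval -0.43 to 0.03, adjusted p = 0.447). Aplnr, its receptor gene, changed by 0.05 (interval -0.12 to 0.21).

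Among the transcription factors, Erg fell and the others did not pass. Erg encodes a factor of the ETS family that maintains endothelial identity and junctions, and in the embryo it is also known from forming cartilage and megakaryocytes. It read 7.98, 8.03, 7.47 and 7.78 in mutants and 8.64, 8.40, 8.64 and 8.24 in controls. All mutants lay below all controls, with control 4 and mutant 2 closest to each other. Erg fell to 0.63 of the control level (-0.67 ± 0.140 SE, interval -0.98 to -0.35, adjusted p = 0.0449). The call was lost without control 1, 2 or 3 or mutant 1 or 4, where the change was -0.61 to -0.72 and the adjusted p 0.067 to 0.163. The other Erg probe set, at 6.74 in mutants and 6.73 in controls, changed by 0.01 ± 0.118, with an interval of -0.25 to 0.28. Its values were 6.43, 6.78, 6.98 and 6.79 in mutants and 6.63, 6.77, 6.89 and 6.65 in controls, which overlapped. The fall of Erg thus stands on 1 of 2 probe sets, and their mean changed by -0.33 (adjusted p = 0.0874). Of the platelet and megakaryocyte genes, Pf4 (-0.77 ± 0.138) and Ppbp (-0.97 ± 0.169), both chemokines of platelet granules, fell on the same arrays. Without control 2 or mutant 1 or 4, or with quantile normalization, neither passed (adjusted p 0.0536 to 0.101), and Pf4 did not pass without control 3 or mutant 2 either (0.084 and 0.0541). Gp1bb did not pass on its brightest probe set (0.10 ± 0.175), whereas its other probe set changed by -0.83 ± 0.118. In a fit over all probe sets with 1 gene, the latter had an adjusted p of 0.0145. The summed level of the 11 measured platelet and megakaryocyte genes was 11.22 to 11.60 in mutants and 11.69 to 12.16 in controls. Its part in the Erg value was not tested.

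The other ETS factor, Fli1, which acts with Erg in endothelium and blood cells and is also known from neural crest mesenchyme, changed by 0.26 (interval -0.07 to 0.59, adjusted p = 0.507). Its mutants read 11.24, 11.16, 11.44 and 11.27 and its controls 11.04, 10.67, 10.90 and 11.44, so that control 4 again lay with the mutants. The 3 SOX factors that act early in vessels, and in arteries and lymph vessels, changed by 0.08 (Sox7), -0.12 (Sox17) and -0.06 (Sox18), with intervals that reached no further than -0.50 and 0.33. Mutant 3 was the lowest mutant for each of the 3.

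ETS factors such as Erg bind DNA at a core of GGAA, so the bases upstream of the members' starts were searched for the letters AGGAAG or CGGAAG on either strand. The RefSeq table of promoters (GRCm38.p6) matched 19 of the 38 genes with 24 starts, and the 250 bases before each start were read. The letters stood in 11 of the 24 windows, whereas 39.2% of all 32851 such windows held them. By gene they stood in 10 of the 19, for which no share over all genes was computed. For the SOX letters AACAAT the figures were 3 of 24 windows and 9.42% of all. These matches describe letters in a window and were not related to the changes. Windows of Erg, the gene that fell, and of Robo4 and Tie1, endothelial receptor genes whose windows carry the same letters, are printed 5′ to 3′ on the gene's strand, with the ETS letters in capitals.
Erg, chr16:95459349-95459598, - strand: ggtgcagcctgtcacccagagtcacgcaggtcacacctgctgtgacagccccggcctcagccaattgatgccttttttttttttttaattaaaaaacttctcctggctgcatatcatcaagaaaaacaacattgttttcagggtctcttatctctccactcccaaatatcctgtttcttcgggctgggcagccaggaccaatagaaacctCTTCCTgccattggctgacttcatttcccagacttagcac
Robo4, chr9:37401722-37401971, + strand: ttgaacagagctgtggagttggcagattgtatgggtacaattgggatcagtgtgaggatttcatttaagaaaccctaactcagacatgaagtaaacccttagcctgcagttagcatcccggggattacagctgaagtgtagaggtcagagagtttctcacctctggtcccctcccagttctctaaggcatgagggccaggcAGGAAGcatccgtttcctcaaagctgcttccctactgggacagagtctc
Tie1, chr4:118489850-118490099, - strand: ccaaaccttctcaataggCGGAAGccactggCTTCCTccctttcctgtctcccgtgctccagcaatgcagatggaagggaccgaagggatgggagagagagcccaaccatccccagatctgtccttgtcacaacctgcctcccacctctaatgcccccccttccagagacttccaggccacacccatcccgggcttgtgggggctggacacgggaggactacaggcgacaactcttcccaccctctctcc

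The Robo4 window has 1 match, the Tie1 window 2 and the Erg window 1, and the other 2 Erg starts in the table have none. Tie1 and Robo4 themselves did not pass, with changes of 0.15 and -0.11, while Erg changed by -0.67.

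Genes of endothelial junctions and adhesion were close to their control levels. Cdh5 encodes VE-cadherin, the adherens junction protein of endothelium. It read 9.28, 9.68, 9.29 and 9.15 in mutants and 9.57, 9.27, 9.24 and 9.30 in controls. The highest array of each group exceeded all the others, and the means differed by 0.01 (interval -0.27 to 0.28, adjusted p = 0.989). Pecam1, an adhesion molecule of endothelium, platelets and leukocytes, read 7.73, 7.83, 7.12 and 7.77 in mutants and 7.60, 7.74, 7.90 and 7.94 in controls. Mutant 3 was far below the rest, and the change was -0.18 (interval -0.53 to 0.17, adjusted p = 0.687), or -0.02 without it. Cldn5, the tight junction claudin of endothelium, read 9.56, 9.66, 9.37 and 9.55 in mutants and 9.43, 9.19, 9.40 and 9.28 in controls. Mutants 1, 2 and 4 lay above every control, and the change of 0.21 (interval 0.02 to 0.41) did not pass (adjusted p = 0.319). Esam (-0.09) and Icam2 (-0.07), adhesion molecules also found on platelets, did not pass.

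The surface and secreted vessel proteins were mixed, and none of the 9 passed. Lyve1, a hyaluronan receptor of lymphatic endothelium and of some macrophages, read 4.28, 4.36, 4.44 and 4.36 in mutants and 4.58, 4.52, 4.69 and 4.70 in controls. Every mutant lay below every control (-0.26 ± 0.0734 SE, adjusted p = 0.12). Both levels were under the lower quartile of gene means, where arrays compress differences. The macrophage genes had a summed level of 12.23 to 12.71 in mutants and 11.48 to 11.57 in controls, and their part in the Lyve1 value was not tested. Without mutant 3 the Lyve1 change was -0.29 and passed (adjusted p = 0.0494). The other Lyve1 probe set, dimmer still at 3.81 in mutants and 3.88 in controls, changed by -0.07 ± 0.104. Its groups overlapped.

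Clec14a, a lectin-like receptor of sprouting endothelium, read 6.95, 7.08, 6.67 and 7.06 in mutants and 7.24, 7.12, 7.47 and 7.27 in controls. The groups did not overlap, although mutant 2 and control 2 nearly met, and the change was -0.34 ± 0.111 (adjusted p = 0.201). Its other probe set gave a similar -0.41 ± 0.144, with mutants at 5.74, 5.68, 5.06 and 5.56 and controls at 6.04, 5.77, 5.99 and 5.89. Both Clec14a probe sets thus lay lower in every mutant than in any control, and neither passed.

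The remaining 7 of these genes changed by -0.23 to 0.14. Cd34, a sialomucin of endothelium and blood progenitors, was at -0.23 (interval -0.48 to 0.02). Mmrn2, an extracellular ligand of Clec14a and Cd93, was at 0.14, and Cd93, a receptor of endothelium and myeloid cells, at 0.00. Emcn (0.02), a mucin of capillaries and veins, Ecscr (0.02), a regulator of endothelial chemotaxis, Egfl7 (0.04), a secreted guide of vessel tubes, and Plvap (-0.10), which forms the diaphragms of fenestrae, all had intervals within -0.28 to 0.31.

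None of the arterial genes Dll4, Gja4 and Gja5 passed. Dll4, the Notch ligand of arteries and tip cells, read 6.17, 5.97, 6.23 and 6.33 in mutants and 5.98, 6.15, 5.99 and 6.01 in controls. Mutants 1, 3 and 4 exceeded every control and mutant 2 was the lowest of all 8 arrays (0.14, interval -0.06 to 0.35, adjusted p = 0.551). A second, dimmer Dll4 probe set changed by -0.10 ± 0.101. The connexin genes, which encode gap junction proteins of arteries, changed by -0.03 (Gja4) and 0.08 (Gja5). Gja5 was dim, at 5.11 in mutants and 5.03 in controls, under the lower quartile of gene means (5.70).

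The 5 receptors and effectors of endothelial signalling did not pass either. Robo4, a roundabout receptor that stabilises vessels, read 7.44, 7.68, 7.47 and 7.46 in mutants and 7.66, 7.64, 7.66 and 7.56 in controls. Mutant 2 was the highest of all arrays and the other mutants lay below every control (-0.11, interval -0.28 to 0.06, adjusted p = 0.591). Nos3, the endothelial nitric oxide synthase gene, changed by -0.08, and Rasip1, needed for vessels to open a lumen, by -0.11. Ramp2, a partner of the adrenomedullin receptor, changed by 0.10 and S1pr1, a sphingosine phosphate receptor that quiets sprouting, by 0.05. All 5 intervals lay between -0.34 and 0.29.

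**Figure D3:**
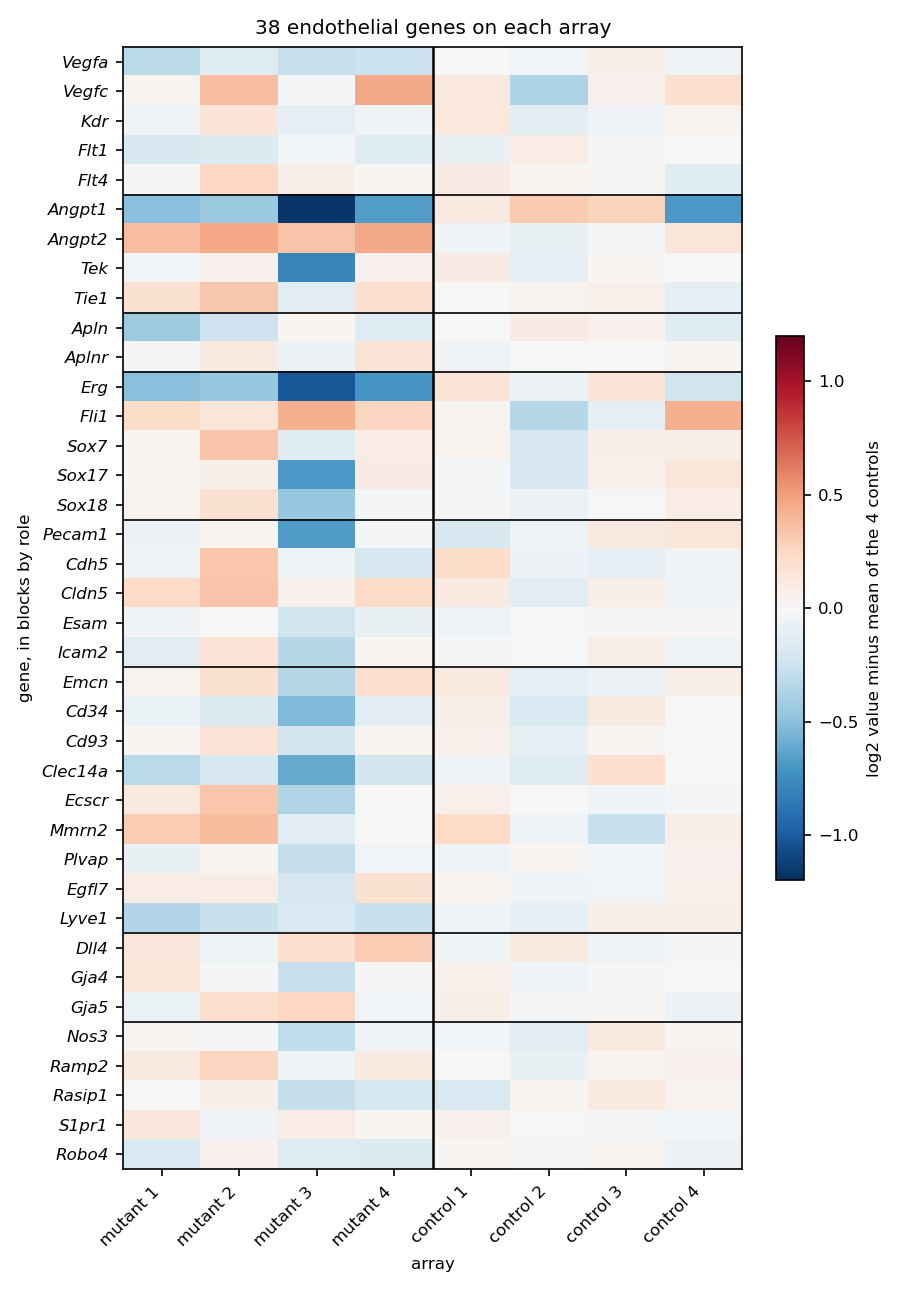
Log2 value of each of the 38 genes on each array minus the mean of its 4 controls (colour), with mutants 1 to 4 left of controls 1 to 4 and genes in blocks by role. Angpt2 is above and Vegfa, Erg, Clec14a and Lyve1 are below the control mean on every mutant array, and the mutant 3 column is low across many genes.

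Mutant 3 was low across the 38 genes. It was the lowest mutant for 27 of the 38 genes, and 30 lay below their own mean over all arrays. The median deviation of the 38 from those means was -0.20 on mutant 3, and 0.00 to 0.13 on the other mutants and -0.03 to 0.03 on the controls. All genes together were also low on that array, with a median deviation of -0.07, or -0.16 among genes above the lower quartile, and it was the lowest mutant for 51.2% of all genes. After quantile normalization of the arrays the median deviation of the 38 on mutant 3 was 0.02. Tek, Sox17 and Pecam1 nonetheless read 6.89, 7.66 and 7.17 there after that step, below every other array. Erg (7.62), Angpt1 (6.92), Tie1 (5.80) and Clec14a (6.61) were among further genes that read lowest there. Others, such as Flt1 (8.10), Apln (8.83) and Fli1 (11.55), read above every other array. The median change of the 38 genes was 0.03 without mutant 3.

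**Figure D4:**
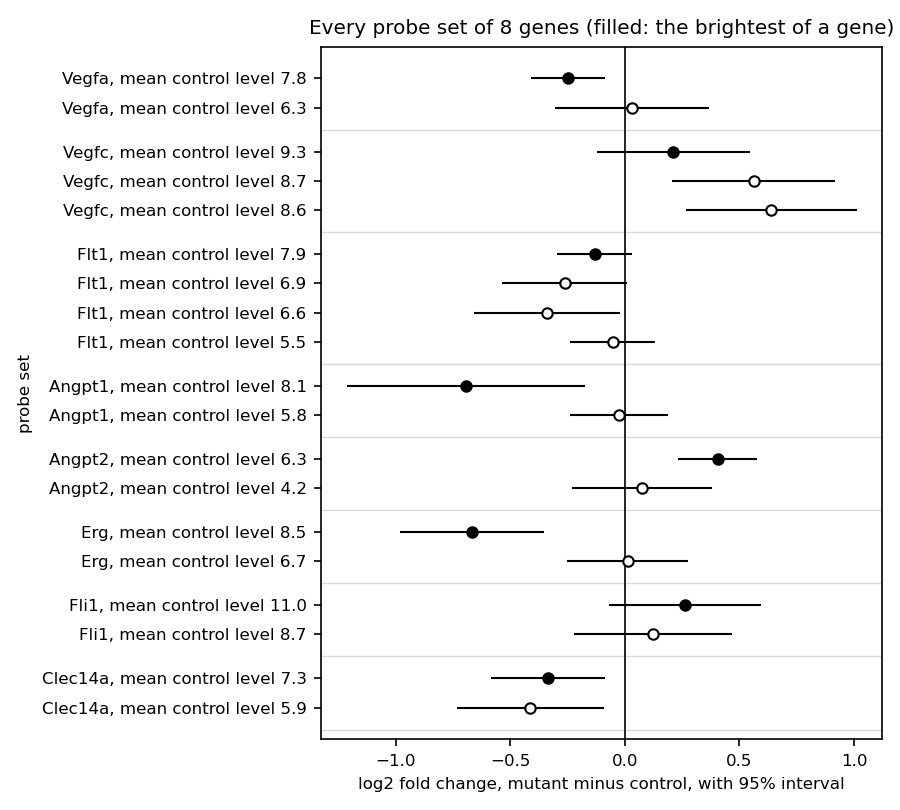
Log2 fold change with 95% interval of every probe set of 8 endothelial genes; filled points are the brightest probe set of a gene, and the mean control level stands beside each. The probe sets of Erg, Angpt1, Angpt2 and Vegfa differ in change, 2 of the 3 Vegfc probe sets lie at 0.56 and 0.64, and both Clec14a probe sets lie below 0.

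More than 1 probe set was annotated to 18 of the 38 genes, up to 5 for Cd93, and for 8 of the 18 the probe sets differed in sign. The 5 probe sets of Cd93 lay between 0.00 and 0.14. The 2 probe sets of Cdh5 changed by 0.01 and -0.08, the 2 of Flt4 by 0.09 and 0.12, and the 4 of Egfl7 by -0.05 to 0.04.

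Beyond these 38, a list of 19 further endothelial genes held 1 call. Gata2, a GATA factor of endothelium and blood progenitors that is also known from arch mesenchyme and neurons, read 8.87, 8.83, 8.82 and 9.03 in mutants and 7.39, 7.61, 7.46 and 7.87 in controls. It rose by 1.31 ± 0.109 (adjusted p = 0.00101) with the groups far apart, and it passed under each of the 17 alternatives. The other 18 did not pass, and the list's median was 0.04, with 10 genes above 0 and 9 below. An unadjusted p under 0.05 was reached by 7 of the 19, beside 13.5% of all genes. The groups did not overlap for 6 of the 19, beside 10.3% of all genes. Of the 18, Stab1 (0.42 ± 0.115, adjusted p = 0.113) came nearest to passing. Etv2, the early inducer of endothelium, changed by 0.17 ± 0.0730, and Acvrl1, the type I receptor of endothelial BMP signalling, by -0.28 ± 0.10, both without overlap. Etv2 was dim, at 5.76 in mutants and 5.59 in controls, where the lower quartile of gene means was 5.70. Eng, a TGF-beta co-receptor of endothelium, changed by 0.05 ± 0.0916. The other Eng probe set, at 7.51 in mutants and 7.72 in controls, changed by -0.21 ± 0.108.

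Of 20 further genes of the VEGF, apelin, adrenomedullin and sphingosine phosphate pathways, none passed and the median was -0.10. Of the 20, 5 had an unadjusted p under 0.05, beside 13.5% of all genes. The smallest p-values belonged to the sphingosine phosphate receptor genes S1pr3 (-0.51 ± 0.139, adjusted p = 0.113) and S1pr2 (-0.29 ± 0.0973, adjusted p = 0.206). Of 12 arterial, venous and Notch pathway genes, Hey2 fell and 11 did not pass (median -0.07). Beside 13.5% of all genes, an unadjusted p under 0.05 was reached by 4 of the 12. Besides Hey2 these were Efnb2 (0.36 ± 0.0827, adjusted p = 0.0607), Nr2f2 (0.66 ± 0.181, adjusted p = 0.117) and Hey1 (-0.71 ± 0.194, adjusted p = 0.114). Hey2 encodes a Notch effector that favours arterial fate and is also found in mesenchyme. It read 6.91, 6.95, 6.58 and 6.53 in mutants and 9.22, 9.73, 9.69 and 7.42 in controls. Control 4 lay between the other controls and the mutants (-2.27 ± 0.443, adjusted p = 0.0349). The call was lost without any 1 array other than control 4, with an adjusted p up to 0.128.

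Of 7 lymphatic endothelial genes none passed and 2 had an unadjusted p under 0.05, beside 13.5% of all genes. The 2 were Adamts3 (0.42 ± 0.130, adjusted p = 0.167), which encodes a protease that matures VEGF-C, and Foxc2 (0.37 ± 0.143, adjusted p = 0.281), a factor of lymphatic valves and of arch mesenchyme. Prox1, the master factor of lymphatic fate, changed by -0.01 with a wide SE of 0.301. It was dim, at 4.65 in mutants and 4.66 in controls, under the lower quartile of gene means (5.70). Of 13 pericyte and vascular smooth muscle genes, Rgs5 rose and 12 did not pass (median -0.02). Of the 13, 4 had an unadjusted p under 0.05, beside 13.5% of all genes. Rgs5, a G protein regulator abundant in pericytes, read 9.37, 9.53, 8.72 and 9.87 in mutants and 7.99, 7.96, 8.19 and 8.65 in controls. Mutant 3 and control 4 nearly met, and the change was 1.17 ± 0.235 (adjusted p = 0.0391). Without control 1, 2 or 3 or mutant 1, 2 or 4 the adjusted p was 0.0798 to 0.14. The mean over the 4 Rgs5 probe sets changed by 0.92 and did not pass either (adjusted p = 0.0535). The other pericyte markers Pdgfrb (-0.23), Cspg4 (0.04), Kcnj8 (0.45), Abcc9 (-0.10) and Notch3 (-0.19) did not pass. The other Cspg4 probe set changed by -0.31 ± 0.104. In the rest of the list, Tagln (-0.38 ± 0.0910, adjusted p = 0.0723) and Des (0.30 ± 0.102, adjusted p = 0.221) came nearest to passing.

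**Figure D5:**
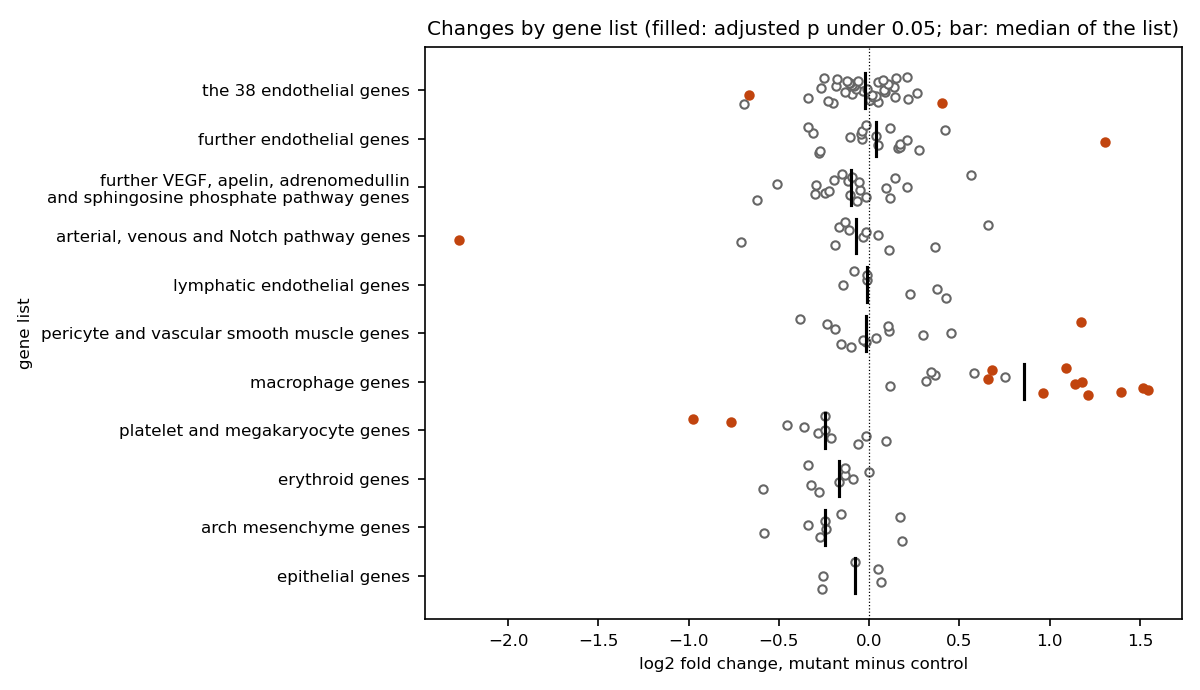
Log2 fold change of single genes (points) in the 38 endothelial genes and in 10 further lists; filled points passed an adjusted p under 0.05 and the bar is the list's median. The endothelial lists centre on 0 (medians -0.02 and 0.04), whereas the macrophage list lies at 0.86.

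Further lists covered other cells of the arch. All 16 macrophage genes were above 0 and 10 passed, among them C1qb (1.54 ± 0.149), C1qc (1.52 ± 0.149) and C1qa (1.40 ± 0.131), the chains of complement C1q, and Adgre1 (1.21 ± 0.130), the F4/80 antigen. Of 9 erythroid genes none passed in limma, 4 had an unadjusted p under 0.05 and all were below 0 (median -0.17), with Epb42 at -0.59 ± 0.199 and Ermap at -0.32 ± 0.108. Of 8 arch mesenchyme genes none passed, 6 had an unadjusted p under 0.05, and Msx1 (-0.58 ± 0.136, adjusted p = 0.0675) and Prrx1 (-0.34 ± 0.0823, adjusted p = 0.0753) came nearest. Prrx1 passed under 7 and Msx1 under 4 of the 17 alternatives. The list had a median of -0.24, with Dlx5 (0.18) and Tfap2a (0.17) above 0. None of 5 epithelial genes passed and 0 had an unadjusted p under 0.05, with Cdh1 at -0.26 ± 0.139, Epcam at -0.25 ± 0.173, Krt8 at -0.08, Krt18 at 0.05 and Cldn6 at 0.07 (median -0.08). Over all genes, 13.5% had an unadjusted p under 0.05. No test compared the lists with each other.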

How the data were processed

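The deposited values are log2 expression per probe set for 8 arrays, 4 a group. The authors made them with RMA, per the submitters' processing notes. RMA corrects background, normalizes and summarizes probes, and as background knowledge it compresses differences of dim probe sets. Its version and a genome build are not given in the sources used here. Total RNA was biotin-labelled, per the labels' protocols. Of 45101 probe sets, 34958 had 1 gene symbol in the platform annotation, 932 several and 9211 none; the last 2 kinds were not named. The brightest probe set of each gene gave 18194 genes. Mutants were compared with controls in limma 3.58.1 (R 4.3.3; lmFit, eBayes) on log2 values with no covariate, with Benjamini-Hochberg adjustment over all genes and a threshold of 0.05. The number of arrays limits the precision. Steps were tested on simulated data.

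The members and lists were chosen with earlier results of these data known, so no test was made over a list. The text names every member, with the value on each array for members past the threshold, for the member with the smallest p of each role group, and for Pecam1, Cdh5, Kdr and Tek. Of each further list it names up to 4 genes past the threshold, or else the 2 with the smallest p. Values on each array for Vegfc, Angpt1, Fli1 and Clec14a, and some genes of the further lists, fall outside it and were picked with their values in view. Some genes of the lists are not reported here. Alternatives were other probe set choices, dim-gene filters, quantile normalization, a trended robust variance, array weights, a replicate block, a threshold of 0.1 and leaving out arrays.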

Additional observations from a re-analysis of the deposited data

Results flagged for a closer look

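In each group of 4 arrays, a value was singled out when its gap to the nearest other array took up more than 0.829 of the group's range (Dixon's criterion, which chance meets in about 1 of 20 groups). In all, 116 groups were examined over 58 genes, of which 38 were the endothelial genes. The criterion was met in 8 groups, 7 of them on endothelial genes, and 4 of the 8 values were on mutant array 3. On mutant 3, Tek read 6.90 where the other mutants read 7.66 to 7.74, Sox17 read 7.50 where they read 8.21 to 8.29, and Pecam1 read 7.12 where they read 7.73 to 7.83. The epithelial cadherin gene Cdh1 read 9.93 on the same array, where the other mutants read 10.48 to 10.59. Mutant 2 was high for Robo4, at 7.68 against 7.44 to 7.47. Among controls, array 2 was low for Sox7 (7.67 against 7.90 to 7.94) and high for Dll4 (6.15 against 5.98 to 6.01), and array 1 was low for Esam (8.80 against 8.85). None of these genes passed the test of mutants against controls.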

How the results depend on the processing

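The median change of the 38 endothelial genes stayed between -0.09 and 0.04 under 16 alternatives. The count of higher members was 0 rather than 1 with the replicate block, when probe sets of a gene were averaged and above the median level, where Angpt2 is not among the genes, and 0 to 1 when single arrays were left out. The count of lower members was 0 with the replicate block and over the mean of probe sets, 2 with quantile normalization (Erg and Lyve1), 4 with array weights (Vegfa, Apln, Erg and Lyve1), 2 without both mutant 3 and control 4 (Angpt1 and Erg; chosen after seeing the data), and 0 to 2 when single arrays were left out. Of the 36 members that did not pass, 32 passed under no alternative. The genes past the threshold, 390 in all, were 620 with quantile normalization (279 higher and 341 lower), 1356 with array weights, 664 at an adjusted p under 0.1, 1126 without both of those arrays, and 104 to 618 when single arrays were left out, and leaving out control 1, 2 or 3, or mutant 3 or 4, gave more higher than lower genes. The causes were not tested. Of the 38, 24 kept their sign throughout and 14, all with no call, did not. Deviations of samples with the same number correlated at 0.033, 0.0019, -0.12 and 0.41 (numbers 1 to 4), and since only number 4 exceeded 0.1 the numbers were not taken to pair the samples; with the replicate block 293 genes passed and Angpt2 (adjusted p = 0.0765) and Erg (0.0769) did not.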
